A study of Carica papaya with 55 samples.

Results

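CpXY1 to CpXY16 are 16 genes of the papaya (Carica papaya) sex-linked region that are listed with a copy on the X chromosome and a copy on the Y chromosome. Both copies of every pair whose base name is CpXY and a number from 1 to 16 were taken, without names that carry the prefix P. This gave 32 of the 193 features of the deposited tables, and 16 of the 68 pairs found there on both chromosomes. The suffix X marks the X copy and the suffix MSY marks the copy in the male-specific region of the Y.

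Papaya has an XY system in which males carry the male-specific Y region and females carry a pair of X chromosomes and no Y. Genes that once sat on a common ancestral chromosome can persist as an X copy and a Y copy, often called gametologs, which no longer recombine and may diverge in sequence and in expression. Male papaya flowers form stamens and an aborted pistil, the pistillode, which stands where female flowers form the functional pistil. Names of the 16 pairs are those of the files. None of the 193 features matched an identifier or symbol in the RefSeq table of 48816 papaya genes, so no function is given for any of them.

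The RNA came from flowers of the cultivar 'AU9', in 55 libraries that form 19 groups, 34 of males and 21 of females. The series concerns the alleles of CpMDAR4, which was not analysed here. Whole buds under 1 mm (stage S0) were taken from males and from females. Stamens and pistillodes of males, and pistils of females, were dissected at buds of 1 to 1.5 mm (S1), 2 to 4.5 mm (S2) and 4.5 to 6.5 mm (S3), which the labels place before meiosis, at 7 to 12 mm (S4, after meiosis) and at 15 to 20 mm (S5, mature flowers). Pollen of males and ovules of females were taken at S5. No treatment and no genotype other than 'AU9' is given, and the groups differ in sex, organ and stage. There were 3 libraries in each group, but 2 in S2 pistillodes and 2 in S3 pistillodes. Organ labels could not be set against marker genes, since the tables hold sex-linked features alone. The sex labels were checked with CpY19_MSY, a Y feature without an X partner, which had at least 148 counts in each of the 34 male libraries and at most 1 count in each of the 21 female libraries.

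Levels are given as CPM, the count of a feature scaled to the library's normalised total of sex-linked counts. The unscaled total was 21475 counts in the smallest library, 64618 in the median one and 106846 in the largest, and it is not the sequencing depth. The 32 features took 21.6 to 37.9% of it. All 32 passed the filter on low counts, which kept 139 of the 193 features for testing. Changes are log2 differences with their standard error (SE) from edgeR's quasi-likelihood test, and a change was called at a Benjamini-Hochberg adjusted p under 0.05 over the 139 features. Whether the replicates of a group are separate plants is not stated, and p-values cover the spread among these libraries, which may be technical. A lower level in an organ can stand for fewer cells of a type or for less RNA per cell, and in bulk samples these cannot be told apart. Males carry an X and a Y while females carry a pair of X chromosomes, so the sexes also differ in the number of X copies. Whether lower X copies in males follow from that number was not tested.

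The pair numbers followed the order of the genes along the X chromosome, from CpXY1_X (X, 1998815 to 2003984) to CpXY16_X (X, 4084474 to 4088196). Along the Y the order was broken. From the lowest start it ran CpXY14, 13, 12, 8, 9, 10, 5, 4, 3, 2, 1, 7, 6, 16, 15 and 11, from CpXY14_MSY (Y, 866634 to 884333) to CpXY11_MSY (Y, 7416131 to 7419241). The stretch from CpXY5 to CpXY1 thus ran backwards as a block, and CpXY11 stood alone at the far end. The copies lay on opposite strands in 11 pairs and on the same strand in 5. No source used here names the genome build behind these coordinates.

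**Figure D1:**
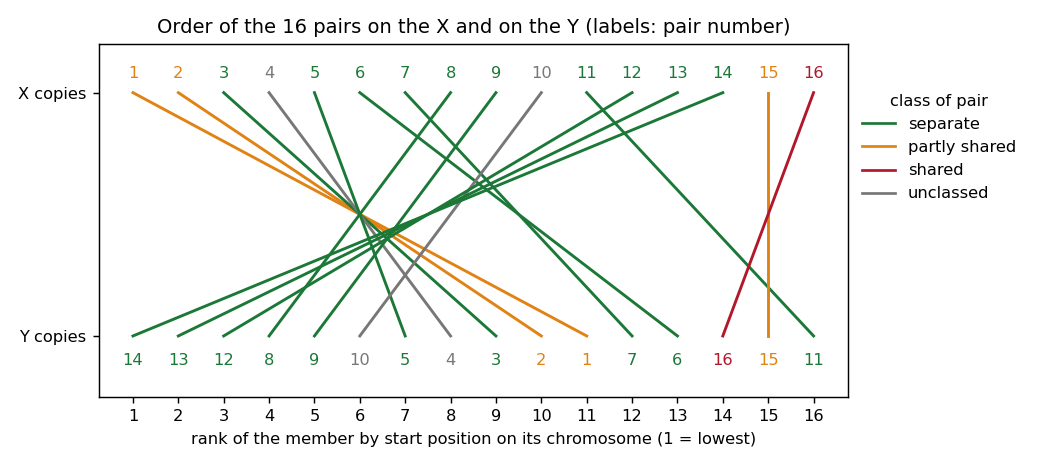
Order of the 16 pairs along the X (upper row) and the Y (lower row); the horizontal axis is the rank of the start position, 1 line joins the copies of a pair, and colours give the class of the pair by the reads that females place at the Y copy. The lines of CpXY1 to CpXY5 cross at 1 place, while CpXY15 keeps rank 15 on both.

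The annotated exons of the copies were of like size in most pairs. In 10 pairs the Y copy's exon length was 95.5 to 102% of the X copy's, in CpXY3 it was 92.9%, and 8 pairs had the same number of exons. The Y copy was under 80% as long in CpXY10 (51.0%), CpXY5 (54.1%), CpXY13 (54.6%) and CpXY16 (62.4%), and it was 200% as long in CpXY4, with 588 bases against 294. Levels of different features are therefore set beside each other per kb of exon only.

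Since females have no Y, their counts at a Y copy are reads of another origin placed there, and they show how well the copies of a pair were told apart. In 10 of the 16 pairs less than 5% of the female counts lay at the Y copy, summed over libraries, and these are called separate. The share was 0.0574% for CpXY11, 0.106% for CpXY5, 0.132% for CpXY8, 0.361% for CpXY9, 0.475% for CpXY13, 0.562% for CpXY7, 0.565% for CpXY3, 0.729% for CpXY6, 1.31% for CpXY14 and 1.82% for CpXY12. The shares of CpXY2 (6.65%), CpXY1 (6.85%) and CpXY15 (7.80%) put these 3 pairs in a partly shared class. CpXY16 was shared, at 30.3%, above the limit of 25%. CpXY4 with 4 female counts and CpXY10 with 58 had fewer than the 100 counts required and were not classed. Among the other 33 pairs named CpXY and a number, 2 were separate, 5 partly shared, 22 shared and 4 not classed. In what follows, a value at a copy of CpXY1, CpXY2, CpXY15 or CpXY16 is uncertain as to its chromosome of origin.

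In pistillodes the levels per kb of the 32 copies spanned several orders of magnitude. CpXY16_MSY stood highest, at 74929.5 ± 8187 CPM per kb (SD, n = 13), followed by CpXY16_X at 46221 ± 4204, CpXY12_MSY at 39358 ± 4867 and CpXY12_X at 36485 ± 4574 CPM per kb. The copies of CpXY16 share reads. Over all male libraries they had near-equal counts, 24903 at the Y copy and 24189 at the X copy. Their annotated exons hold 148 bases at the Y copy and 237 at the X copy, which enters the levels per kb. The ranges of the CpXY12 copies overlapped. CpXY9_X, CpXY9_MSY and CpXY7_MSY came next, at 20319, 13016 and 12449 CPM per kb. At the low end stood the copies of CpXY10, CpXY13 and CpXY4, of which CpXY10_X was highest at 199.9 and CpXY4_X lowest at 3.89 CPM per kb. In pistils the order began with CpXY12_X at 60419, CpXY16_X at 56557 and CpXY9_X at 43802 CPM per kb (n = 15). CpXY16_MSY followed at 39065 CPM per kb, from reads placed there in females, which carry no Y.

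**Figure D2:**
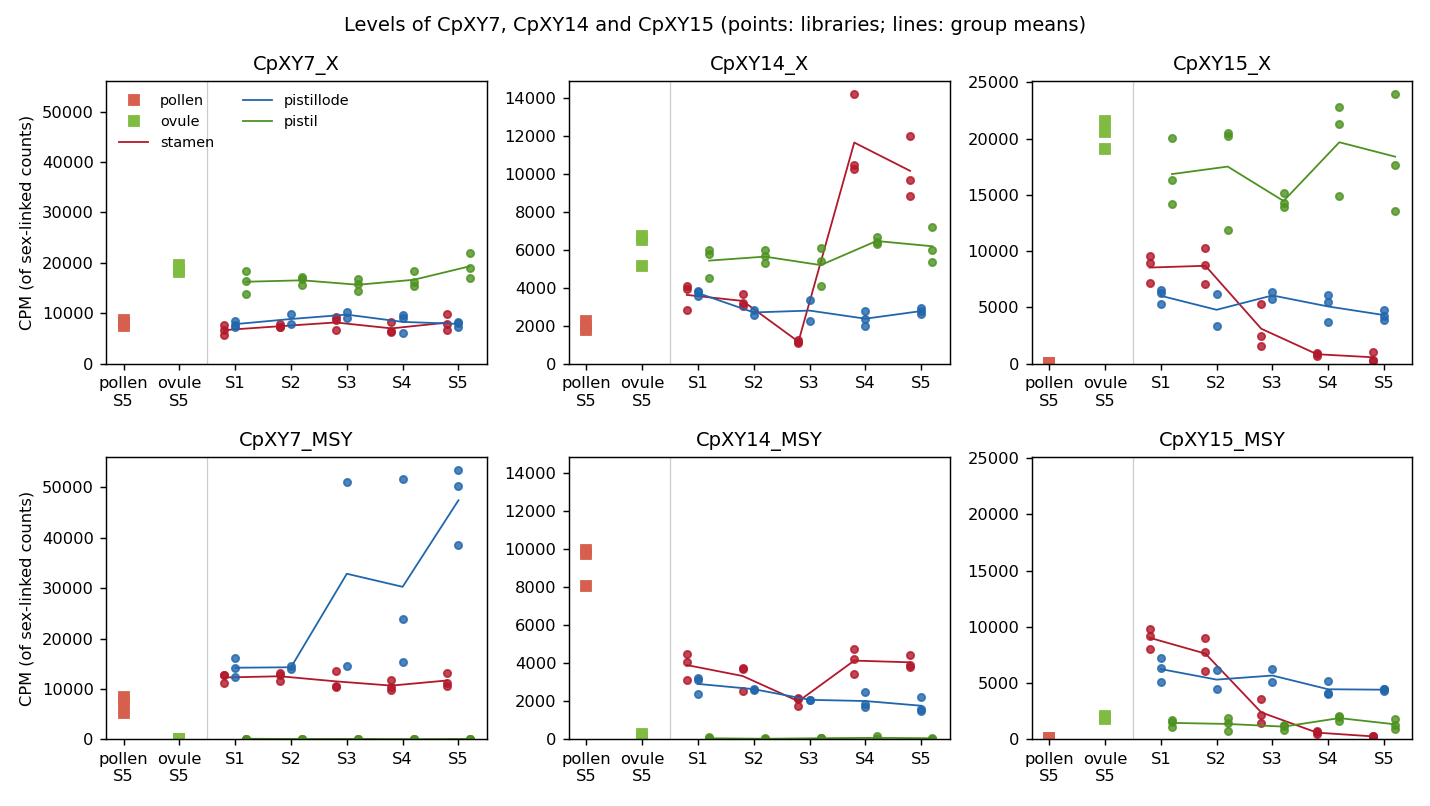
CPM (vertical axis, linear from 0) of the X copy (upper row) and the Y copy (lower row) of CpXY7, CpXY14 and CpXY15 in pollen, ovules and, by stage, stamens, pistillodes and pistils. Points are libraries and lines join group means; CpXY7_MSY reaches 53383 CPM in pistillodes, CpXY14_X is high in S4 and S5 stamens, and CpXY15 is low in stamens from S4 on.

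The sexes were first compared in whole buds, before organs could be dissected. Of the 16 pairs 13 had a higher Y copy in male buds than in female buds, and 11 had a lower X copy. Females carry no Y, so a Y copy with counts of its own in males is higher there by design. CpXY8_MSY had 20536, 22136 and 22664 CPM in male buds, against 14.3, 193.5 and 37.0 CPM in female buds. CpXY8_X had 21266, 24816 and 23032 CPM in male buds, against 52479, 47712 and 57188 CPM in female buds. No library of one sex reached the range of the other at either copy. CpXY8_X was lower in males by a log2 difference of -1.19 (SE 0.14, edgeR).

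Among the 16 pairs, CpXY11 had the largest log2 difference at the Y copy and the largest fall at the X copy. Females carry no Y, so their counts of CpXY11_MSY are reads placed there. The size of the difference at the Y copy depends on how few they were. CpXY11_MSY had 14610.1, 16654 and 14745 CPM in male buds, against 0, 104.2 and 18.5 CPM in female buds, a log2 difference of 8.46 (SE 0.41). CpXY11_X had 16911, 17507 and 16343 CPM in male buds, against 40900.0, 45032 and 44603 CPM in female buds, and was lower by a log2 difference of -1.36 (SE 0.19, edgeR adjusted p = 6.11e-08). The next largest falls of an X copy were at CpXY9_X (-1.13, SE 0.12), CpXY6_X (-1.12) and CpXY3_X (-1.03).

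Of the 32 copies 14 rose and 11 fell in male buds, and 64.7% of all tested features were called (37.4% higher and 27.3% lower). Over all 72 tested Y features 45 rose and 6 fell, with a median log2 difference of 1.77. Among the 16 Y copies 13 rose and 0 fell, with a median of 4.86, a direction given by the lack of a Y in females. The Y copies not called were those of CpXY4, CpXY10 and CpXY13, which had 0 to 5 counts in every bud library. Over all 67 tested X features 7 rose and 32 fell, with a median of -0.57. Among the 16 X copies 1 rose and 11 fell, with a median of -0.73. The X copy that rose was CpXY10_X, with 22, 31 and 27 counts in male buds against 10, 6 and 0 counts in female buds. Its male to female ratio was 3.82 (95% counting interval 2.22 to 7.00). With 1 library left out the ratio ran from 2.74 (without female bud replicate 3) to 6.47 (without female bud replicate 1). Scaling moves these splits: with factors taken from X features alone, the median of all features moved to 0.62 from 0.08, the 32 copies split into 16 higher and 6 lower, and 2 of the 16 X copies rose and 6 fell, with a median of -0.19.

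Counts were also added over the X and Y copy of each pair. In buds 8 of the 16 pair sums were called, beside 36.5% of all pair sums tested (17.5% higher and 19% lower), with 4 higher and 4 lower in males. CpXY16 rose by 0.58 and CpXY1 by 0.53 on the log2 scale, both with copies that share reads. CpXY12 rose by 0.26 (SE 0.11, edgeR adjusted p = 0.0496), just under the limit of 0.05. The fourth, CpXY10, rose by 2.00 (SE 0.72, edgeR adjusted p = 0.0287) on few counts, a call lost without female bud replicate 2 or 3 or male bud replicate 2 or 3. CpXY11 (-0.52), CpXY9 (-0.46), CpXY3 (-0.39) and CpXY8 (-0.32) fell. Single bud libraries decide part of this count, which was 4 to 7 when 1 bud library was left out. It was 4 without female bud replicate 2 or male bud replicate 3, and 5 without male bud replicate 2.

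The pistillode, the aborted organ of males, was compared with the functional pistil of females over S1 to S5. Of the 32 copies 14 rose and 13 fell in pistillodes, and 82.7% of all tested features were called (46% higher and 36.7% lower). All 13 Y copies that rose lay above every pistil library, a direction given by the lack of a Y in females. Over all 72 tested Y features 50 rose and 9 fell. Over all 67 tested X features 14 rose and 42 fell. Among the 16 X copies 1 rose and 13 fell. Of these 16 copies 11 lay below every pistil library, and how many of the other X features did so was not counted. The median over the 16 X copies was -0.93, beside -0.61 over all tested X features and -0.47 over the 30 tested X copies of the other pairs named CpXY and a number. Of the X copies of the 10 separate pairs 9 fell and 0 rose. With factors from X features alone 2 X copies rose and 11 fell, with a median of -0.34, while the median of all features moved to 0.78 from 0.19.

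CpXY15_X had the largest fall of an X copy in pistillodes. It ran from 3369 to 6541 CPM with a median of 5488 in 13 pistillode libraries, against 11841 to 23925 CPM with a median of 16291 in 15 pistil libraries. The groups did not overlap, and the log2 difference was -1.73 (SE 0.15, edgeR adjusted p = 7.48e-14). CpXY11_X ran from 10482 to 20677 CPM with a median of 14259 in pistillodes, against 29043 to 58358 CPM with a median of 38329 in pistils, and fell by 1.42 (SE 0.09). CpXY8_X fell by 1.26 (SE 0.06), CpXY9_X by 1.10, CpXY14_X by 1.02 and CpXY5_X by 1.01 on the log2 scale. All 6 lay below every pistil library. CpXY15_MSY, of the same partly shared pair, ran from 4038 to 7265 CPM in pistillodes, against 778 to 2072 CPM in pistils.

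**Figure D3:**
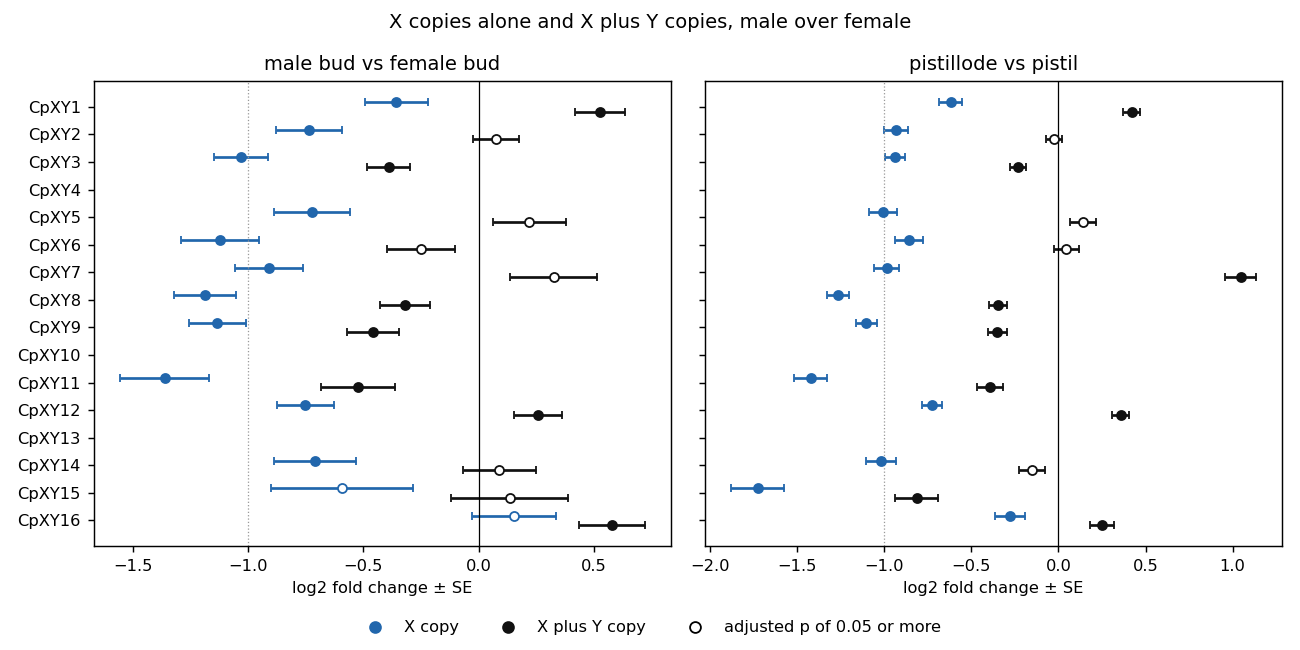
Log2 fold change with its SE (horizontal axis) in male over female buds (left) and in pistillodes over pistils (right), for the X copy and for the sum of X and Y copy of each pair, open symbols being changes that were not called. In pistillodes all 13 X copies shown lie left of 0, and of the sums shown that of CpXY7 lies furthest right, at 1.05; CpXY4, CpXY10 and CpXY13 are left blank for their low counts.

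The pair sums of pistillodes and pistils overlapped in all 16 pairs. In the fit 10 of 16 were called, beside 65.1% of the 63 pair sums tested (31.7% higher and 33.3% lower), with 5 higher and 5 lower, and the median was 0.09 beside 0.06 over all. The sum of CpXY7 rose by 1.05 (SE 0.09, edgeR adjusted p = 1.28e-13). The sum of CpXY10, with few counts, rose by 1.63 (SE 0.70, edgeR adjusted p = 0.0364), a call lost without any 1 of 9 libraries. These were, in pistillodes, replicates 1 and 3 of S1 and replicate 2 of S2, S3 and S4, and in pistils replicates 1 and 2 of S4 and replicates 1 and 3 of S5. CpXY10, log2 change of the pair sum, pistillode vs pistil, was 0.68 (SE 9.84) without replicate 2 of S3 pistillodes. The sum of CpXY7 had a median of 24997 CPM and a highest value of 61699.8 CPM in pistillodes, against 16795 and 22119.7 CPM in pistils. CpXY15 fell by 0.81, CpXY11 by 0.39, CpXY9 and CpXY8 by 0.35 each and CpXY3 by 0.23. The sums of CpXY2 (-0.03), CpXY6 (0.05), CpXY5 (0.14) and CpXY14 (-0.15) were not called.

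CpXY7_MSY varied widely within the pistillode. Its levels were 12330.1, 16178 and 14133 CPM at S1, and 14566 and 14042 CPM at S2. At S3 the pistillode libraries had 51074 and 14622 CPM, and at S4 they had 15352, 51549.7 and 23867 CPM. At S5 they had 50228, 53383 and 38630.3 CPM. Every library of S1 and S2 was thus at or below 16178 CPM and every library of S5 at or above 38630.3 CPM, while S3 and S4 held libraries in both ranges and 1, at 23867 CPM, between them. CpXY7_X showed no such division, at 6080.3 to 10327 CPM in pistillodes against 13899.6 to 21996 CPM in pistils.

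Late pistillodes (S4 and S5) held more CpXY7_MSY than early ones (S1 to S3), by a log2 difference of 1.01 (SE 0.21, edgeR adjusted p = 0.000186). It was one of 2 copies that rose there and 2 that fell, where 23.7% of all tested features were called (13.7% higher and 10.1% lower). With table totals 2 rose and 10 fell, and with TMM on pair sums 4 rose and 0 fell. The others were CpXY10_X, with 59 counts over 6 late and 14 over 7 early pistillode libraries, CpXY11_X (-0.37) and CpXY12_X (-0.24). The call of CpXY11_X was lost without any 1 of 7 pistillode libraries (replicate 1 of S1, S2, S3 and S4, replicate 2 of S3, and replicate 3 of S4 and S5). That of CpXY12_X was lost without any 1 of 12, all but replicate 1 of S1, and its change was -0.13 without replicate 2 of S2. Without replicate 3 of S5 the count of copies called was 2. The Y share of CpXY7 counts was 61.4, 65.5 and 66.0% at S1 and 86.3, 86.5 and 84.0% at S5. In stamens it stayed within 53.2 to 66.2%. The late change of CpXY7_MSY differed between pistillodes and pistils, among 4 of 32 copies that did, where 20.9% of all tested features were called (10.8% more positive and 10.1% more negative in pistillodes). The pistil values of this Y copy are reads placed there in females. The call was lost without pistil replicate 3 at S2 (edgeR adjusted p = 0.0659) and on the groups compared alone (0.0747), and with table totals 13 copies were called, 2 more positive and 11 more negative.

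Stamens and pistillodes are organs of the same male flowers, so their sex chromosomes do not differ. Averaged over S1 to S5, 3 of the 32 copies rose and 14 fell in stamens, and 51.1% of all tested features were called (16.5% higher and 34.5% lower). The median was -0.15 over the 32 copies and -0.14 over all tested features. With factors from X features the split was 6 higher and 11 lower, with a mean of at least 10 counts 8 and 9, with no filter 7 and 10, on the groups compared alone 7 and 15, and without pollen 5 and 12. At every copy the stamen and pistillode libraries overlapped over all stages. Of the pair sums 10 of 16 were called, 4 higher and 6 lower, beside 60.3% of all; with table totals 2 rose and 10 fell. The sum of CpXY14 rose by 0.74 and that of CpXY15 fell by 1.13. The calls grew in number along development, among these copies as over all tested features. In the early stages 1 of 32 copies was called at S1 (10.1% of all tested features), 1 at S2 (9.35%) and 11 at S3 (28.8%). Later the count was 17 at S4 (43.9%) and 22 at S5 (56.8%).

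CpXY15, whose X copy was lower in pistillodes than in pistils, fell within stamens from S3 on, at both copies. Stamens began above pistillodes. The mean of the pair sum was 17579 CPM in stamens and 12286 CPM in pistillodes at S1, and 16325.5 and 10106 CPM at S2. At S3 stamens were below, with 5513 CPM against 11744 CPM in pistillodes. CpXY15_X in stamens had 8919, 9558 and 7159 CPM at S1 and 8734, 7077 and 10292 CPM at S2. It then had 1609, 5269 and 2451 CPM at S3, 940.2, 728 and 860.1 CPM at S4, and 274, 356 and 1085 CPM at S5. CpXY15_MSY stood at 9825, 9198 and 8076 CPM at S1 and at 213, 279 and 318 CPM at S5. The S4 and S5 libraries all lay below those of S1 to S3. Late against early stamens differed by -3.13 (SE 0.24) at CpXY15_X and by -3.75 (SE 0.21, edgeR adjusted p = 1.3e-19) at CpXY15_MSY. In pistillodes the same changes were -0.25 and -0.37 and were not called, and the changes of the 2 organs differed by -2.88 at CpXY15_X and -3.39 at CpXY15_MSY. These changes differed in 15 of the 32 copies, 4 more positive and 11 more negative in stamens, where 47.5% of all tested features were called (15.1% and 32.4%).

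CpXY14_X moved the other way and changed direction across meiosis. In stamens it had 4096, 3956 and 2810.4 CPM at S1, then 1267, 1149 and 1066 CPM at S3. After meiosis it had 14222, 10456 and 10249.7 CPM at S4 and 9658, 8814 and 11986 CPM at S5, while pistillodes ran from 1997 to 3808 CPM over all stages. Every S4 and S5 stamen library lay above every earlier stamen library and every pistillode library. Stamens fell at S3 against S2 by 1.51 (SE 0.19) and rose at S4 against S3 by 3.32 (SE 0.20, edgeR adjusted p = 6.14e-18). CpXY14_MSY had 2178, 1746 and 2105 CPM at S3 and 4781, 3452 and 4215 CPM at S4, a rise of 1.05 (SE 0.35). The Y share of the pair thus stood at 25.2, 24.8 and 29.1% at S4, below 63.2, 60.3 and 66.4% at S3.

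CpXY6 rose at S4 on the Y copy and fell on the X copy. CpXY6_MSY in stamens had 3744, 4610.4 and 4029 CPM at S3, 10488, 8629 and 11138 CPM at S4 and 2194, 1983 and 3651 CPM at S5. S4 thus lay above both neighbouring stages without overlap, with a change of 1.29 (SE 0.23) against S3 and of -1.95 (SE 0.23) at S5 against S4. CpXY6_X had 6691, 9205 and 7616 CPM at S3 and 5151, 5702 and 6049 CPM at S4, a fall of 0.48 (SE 0.17, edgeR adjusted p = 0.0183). The Y share of the pair was 35.9, 33.4 and 34.6% at S3, 67.1, 60.2 and 64.8% at S4 and 46.8, 44.3 and 44.5% at S5.

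Other pairs declined in stamens over the same stages. CpXY2_X had 14953, 15879 and 12055 CPM at S1 and 4250.3, 6165 and 6033 CPM at S5, and late stamens differed from early ones by -1.11 (SE 0.10). CpXY11_X, with 27737, 21633 and 22217 CPM at S1, had 4783, 4663 and 8811 CPM at S5 and differed by -1.45 (SE 0.13). In all, 6 of the 32 copies rose and 12 fell in late stamens, and 65.5% of all tested features were called (26.6% higher and 38.8% lower). The split depends on the scaling, the filter and the groups fitted. It was 5 higher and 21 lower with table totals, and 13 higher and 11 lower with factors from X features, which moved the median of all features from -0.11 to -0.55 and to 0.04. It was 15 and 9 with a mean of at least 10 counts, 14 and 9 with no filter, 12 and 12 with TMM on pair sums, 12 and 11 on the groups compared alone, and 9 and 12 without pollen. CpXY7_MSY was not called in this comparison (-0.12, SE 0.20). Its lower level in stamens than in pistillodes, -1.09 (SE 0.14), was called at S3, S4 and S5 and not at S1 or S2.

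CpXY4, CpXY10 and CpXY13 had at most 31 counts per copy in any library of buds, pistils and pistillodes. Higher counts were reached in stamens, at S4 and S5 for CpXY13 and CpXY10_MSY, at S5 for CpXY4_X and at S3 and S5 for CpXY4_MSY. CpXY13_X (X, 3895165 to 3898270) had 0 counts in all 9 stamen libraries of S1 to S3, 2452, 1366 and 1099 counts at S4 and 2702, 2743 and 3447 counts at S5. Against S3 it was at least 1666-fold higher at S4, where a group at 0 is set to a floor of 3 counts, and at least 1087-fold without S3 replicate 3. CpXY13_MSY had 865, 707 and 464 counts at S4 and 2152, 1947 and 2194 counts at S5, and at S4 it was at least 690-fold higher than at S3 (at least 450.1-fold without S3 replicate 3). Its S1 to S3 stamen libraries had 0 counts apart from 4 in replicate 3 of S1. Pistillodes had at most 3 counts of CpXY13_X and 3 of CpXY13_MSY at S4 or S5.

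CpXY10_MSY (Y, 1821084 to 1821351) came on at the same stage, and its X copy did not. It had 0 counts in S3 stamens, 352, 191 and 338 counts at S4 and 414, 258 and 2077 counts at S5, so that S4 was at least 299-fold higher than S3 (at least 195-fold without S3 replicate 3). CpXY10_X had 0, 0 and 0 counts in S4 stamens and 0, 0 and 4 at S5. S4 and S5 pistillodes showed the reverse, with 3, 20 and 5 counts of CpXY10_X at S4, 11, 15 and 5 counts at S5, and 0 of CpXY10_MSY in all 6 libraries. CpXY10_MSY had no count in any of the 21 female libraries.

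CpXY4 had a course of its own. CpXY4_MSY in stamens had 0, 0 and 0 counts at S1, 3, 6 and 0 at S2, then 800, 221 and 1173 at S3, 0, 3 and 2 at S4, and 1026, 1875 and 29 at S5. The ratio of S3 to S2 was 307 (95% counting interval 162 to 673). S4 was lower than S3 by a ratio of 0.00232 (0.000751 to 0.00541), and S5 was higher than S4 by a ratio of 582 (249 to 1794). With 1 library left out these ratios ran from 214 (without S2 replicate 3) to 523 (without S2 replicate 2), from 0.0013 (without S4 replicate 2) to 0.00367 (without S4 replicate 1), and from 305 (without S5 replicate 2) to 1034 (without S4 replicate 2). CpXY4_X had 0 counts in all stamens of S1 to S3, 5, 10 and 2 counts at S4 and 902, 1721 and 51 at S5. The early peak at S3 was thus seen at the Y copy alone. Replicate 3 of the S5 stamens stood apart from the others at these pairs, low at both copies of CpXY4 and high at CpXY10_MSY.

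**Figure D4:**
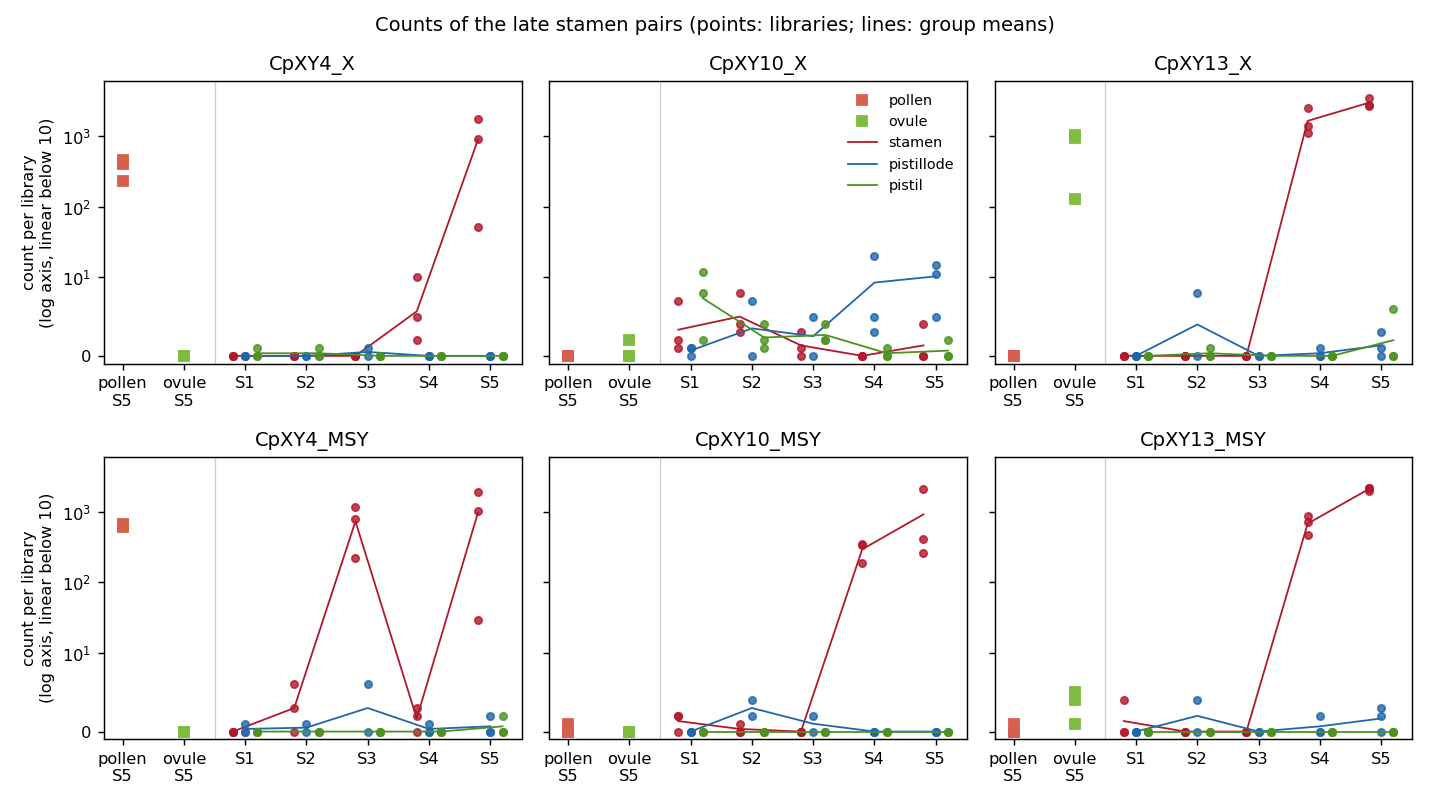
Counts per library (log axis, linear below 10) of the X copy (upper row) and the Y copy (lower row) of CpXY4, CpXY10 and CpXY13 in pollen, ovules and, by stage, stamens, pistillodes and pistils; points are libraries and lines join group means. In stamens CpXY13 and CpXY10_MSY are high at S4 and S5 and CpXY4_MSY at S3 and S5, and of the 3 pairs CpXY4 is the one with over 1 count in a pollen library.

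Stages averaged over groups with no counts gave no usable error for CpXY4, CpXY10_MSY and CpXY13, so that stamens and pistillodes are compared by counts for them. At S5 the ratio of stamens to pistillodes was 1838 for CpXY13_X (95% counting interval 718 to 6749), which ran from 1036 without pistillode replicate 2 to 4523 without pistillode replicate 1. CpXY4_X and CpXY10_MSY had 0 counts in S5 pistillodes. CpXY10_MSY was at least 758-fold higher in S5 stamens, and at least 293-fold without stamen replicate 3. These intervals and floors cover counting error only.

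Pollen was set against the S5 stamens. Of the 32 copies 8 rose and 18 fell in pollen, and 71.9% of all tested features were called (25.2% higher and 46.8% lower). The median log2 difference was -1.37 over the 32 copies and -0.57 over all tested features. CpXY11 and CpXY12 rose at both copies. CpXY11_X had 28876, 33609 and 39433 CPM in pollen, against 4783, 4663 and 8811 CPM in S5 stamens, a rise of 2.48 (SE 0.20, edgeR adjusted p = 2.26e-14). CpXY11_MSY had 15937, 16758 and 18599.6 CPM in pollen, against 5301, 4957 and 8202 CPM in stamens, a rise of 1.47. CpXY12_X had 54581, 62805 and 58804 CPM in pollen, against 24374, 34963 and 19196 CPM in stamens, a rise of 1.17. Pollen thus lay above stamens without overlap at these 3 copies.

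Pollen retained almost nothing of CpXY13 and CpXY10. CpXY13_X had 0 counts in all 3 pollen libraries, at least 998-fold lower than in S5 stamens (643-fold without pollen replicate 3), and CpXY13_MSY had 1, 0 and 0 counts. CpXY10_MSY also had 1, 0 and 0 counts, against 414, 258 and 2077 in stamens. CpXY4 did stay, with 663, 641 and 602 counts of CpXY4_MSY and 459, 401 and 231 of CpXY4_X in pollen. Neither copy of CpXY4 was called against stamens, whose libraries ran from 29 to 1875 counts of CpXY4_MSY. Per kb of exon CpXY4_X reached 54273 ± 19421 and CpXY4_MSY 47018 ± 4925 CPM per kb in pollen (SD, n = 3), below CpXY12_X at 106395 and CpXY12_MSY at 95982 CPM per kb.

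Among the falls in pollen, CpXY16_X had 1028, 986 and 244 CPM in pollen, against 13254, 9589 and 12171 CPM in S5 stamens, a difference of -3.97 (SE 0.23). CpXY6_MSY, the copy that peaked at S4, had 129, 46.9 and 122 CPM in pollen, against 2194, 1983 and 3651 CPM in stamens (-4.67, SE 0.38). CpXY8_MSY had 471, 610.2 and 203 CPM in pollen, against 8165, 9356 and 14473 CPM in stamens (-4.66, SE 0.38). CpXY8_X fell less, by 2.56 (SE 0.15), to 1971, 2253 and 1989.9 CPM in pollen, against 9582, 10193 and 16815 CPM in stamens. The sums of CpXY7 (-0.06) and CpXY14 (0.01) were not called, among 13 of 16 sums that were and 76.2% of all. The rise of the CpXY5 sum in pollen, 0.74, was 0.24 (edgeR adjusted p = 0.218) without pollen replicate 1.

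Within a male library the share of a pair's counts that fell on the Y copy does not depend on the scaling between libraries. Per base of exon CpXY9_MSY was below CpXY9_X in 34 of 34 male libraries, with a median ratio of 0.672. CpXY7_MSY was above CpXY7_X in all 31 male libraries other than pollen, at a median ratio of 1.63, and so was CpXY5_MSY above CpXY5_X, at 1.92. The ratio of CpXY5 rests on annotated exon lengths of 596 bases at the Y copy and 1101 at the X copy. The Y share of its counts had a median of 51.0% in these 31 libraries, close to even. CpXY12 was close to even, at a median of 1.01 over 34 libraries. CpXY3_MSY was the lower copy in 26 of 34 libraries.

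The ratio of Y to X counts was tested with limma in pairs of the separate class with enough counts, and p-values were adjusted over all such pairs of the table. Between stamens and pistillodes it differed in 5 of 9 pairs, where 50% of the 16 tested pairs were called. CpXY3 had the largest rise in stamens, at 0.62 (SE 0.07, limma adjusted p = 4.39e-08), and CpXY7 the largest fall, at -0.81 (SE 0.17). For CpXY3 the Y share was 57.2, 54.9 and 59.2% in S4 stamens, against 43.9, 38.1 and 34.2% in S4 pistillodes. The groups did not overlap there. CpXY5 (-0.27), CpXY12 (-0.25) and CpXY11 (-0.22) fell by less.

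Pollen and S5 stamens differed in this ratio in 7 of 8 pairs, where 69.2% of the 13 tested were called. CpXY14 turned to the Y copy, with Y shares of 80.8, 84.6 and 81.7% in pollen, against 28.9, 33.5 and 24.1% in S5 stamens, a log2 change of 3.53 (SE 0.23, limma adjusted p = 3.08e-13). CpXY8 turned to the X copy, with 19.3, 21.3 and 9.26% in pollen, against 46.0, 47.9 and 46.3% in stamens (-2.15). CpXY5 did likewise, with 15.2 to 23.3% in pollen, against 39.1 to 48.6% in stamens (-1.81). Pollen and stamens did not overlap in any of these 3 pairs. CpXY11 (-1.03), CpXY9 (-0.62) and CpXY3 (-0.60) also fell, and CpXY12 rose by 0.36. Among male libraries the Y share of CpXY14 was thus lowest in S4 and S5 stamens and highest in pollen.

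**Figure D5:**
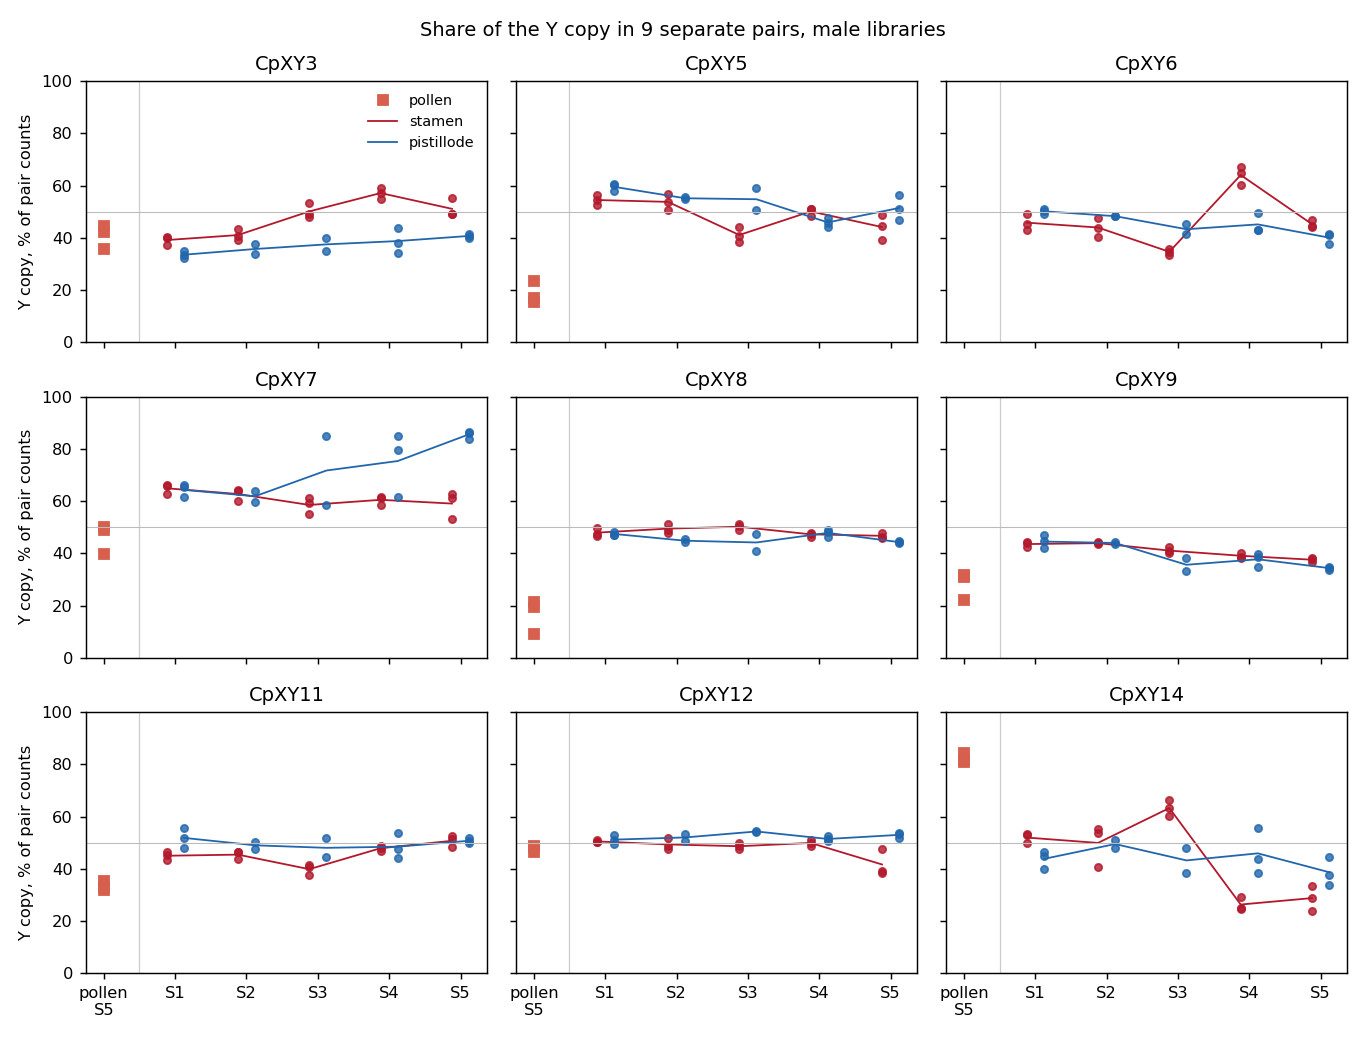
Percentage of a pair's counts on the Y copy (vertical axis) in pollen and, by stage, in stamens and pistillodes, for 9 separate pairs; points are libraries and lines join group means. CpXY7 climbs in late pistillodes, CpXY6 peaks in S4 stamens, and CpXY14 is low in S4 and S5 stamens and above 80% in pollen.

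Late stamens differed from early ones in the ratio in 6 of 9 pairs, where 56.2% of the 16 tested were called. CpXY14 (-1.70), CpXY9 (-0.27) and CpXY12 (-0.22) fell, and CpXY6 (0.78), CpXY3 (0.62) and CpXY11 (0.34) rose. In pistillodes 5 of 9 pairs were called, where 40% of the 15 tested were, led by CpXY7 at 1.13. The smaller changes there (CpXY5 -0.45, CpXY9 -0.32, CpXY6 -0.27 and CpXY3 0.26) were less firm. The count was 3 without any 1 of 5 pistillode libraries, namely S1 replicates 1 and 2, and replicate 2 of S2, S4 and S5.

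In mature female flowers, ovules were compared with pistils. Of the 32 copies 2 rose and 0 fell in ovules, and 8.63% of all tested features were called (5.04% higher and 3.6% lower). With size factors by the median of ratios 1 rose and 1 fell. CpXY13_X had 1031, 926 and 130 counts in ovules, against 6, 0 and 0 counts in S5 pistils, an ovule to pistil ratio of 342 (95% counting interval 157 to 932; 196 without pistil replicate 2) and a log2 difference of 8.28 (SE 0.89, edgeR adjusted p = 3.26e-07). With the DESeq2 Wald test the difference was 7.95 and was not called (adjusted p = 0.0894). CpXY16_MSY had 8476, 8980.4 and 8150.2 CPM in ovules, against 5782, 5149.8 and 6836 CPM in pistils (0.53, SE 0.16, edgeR adjusted p = 0.0262). Females carry no Y, so these are reads of another origin placed at that copy. The call was lost without pistil replicate 2 (edgeR adjusted p = 0.177) and without ovule replicate 3 (0.0568). Of the pair sums CpXY13 rose and CpXY5 fell by 0.49, 2 of 16, beside 11.1% of all. The call of CpXY5 (edgeR adjusted p = 0.0354) was lost without pistil replicate 1, 2 or 3 or ovule replicate 2 or 3. It was also lost with size factors by the median of ratios.

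Between stages of the pistil the copies were called at close to the share of all tested features. Late against early pistils 5 of the 32 copies were called, 3 higher and 2 lower, where 16.5% of all tested features were called (5.04% higher and 11.5% lower). With table totals 6 rose and 2 fell, and with no filter 7 rose and 0 fell. The 3 that rose were the Y copies of CpXY1, CpXY2 and CpXY9, whose counts in females are reads placed there. CpXY11_X fell by 0.39 (SE 0.12), a call lost without any 1 of 6 pistil libraries (replicate 3 of S1, replicate 2 of S3, and replicates 1 and 3 of S4 and of S5), and CpXY10_X had 0 to 2 counts in each late library and 1 to 12 in each early library. The count of copies called depended on single libraries. It was 10 without S3 replicate 1 and 11 without S3 replicate 3. It was 3 without S1 replicate 3, S2 replicate 1, S3 replicate 2, any 1 library of S4, or S5 replicate 3.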

How the data were processed

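The deposited files hold raw counts. Per the file headers, the authors ran featureCounts 2.0.0 for read pairs, tallying exon overlaps under each gene name, counting multi-mapped reads everywhere they align and ignoring strand. The submitters' processing notes list featureCounts 1.5.2, which differs from the headers, beside HISAT2 2.0.5, SAMtools 1.3.1, Trimmomatic 0.36 and FastQC 0.11.5. A read that aligns to both copies of a pair can count at both, which raises the counts of shared pairs. The genome build and the sequences of the features were not used here. All 6 bud libraries carry another folder name in their headers than the 49 organ libraries, so buds were not tested against organs.

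After filterByExpr by group and TMM scaling, 1 robust quasi-likelihood model over 19 groups was fitted in edgeR 4.0.16 (R 4.3.3, prior count 0.125). Organs were compared as means over S1 to S5, late as S4 and S5 against S1 to S3, and late changes between organs by the difference of these contrasts. Tests were two-sided with Benjamini-Hochberg adjustment at 0.05. Sums of the 68 pairs were fitted likewise. The log2 ratio of Y to X counts (pseudocount 0.5) was tested with limma 3.58.1 in male libraries, for pairs whose summed count was 20 or more in each library compared. Ratios of few counts have 95% exact binomial intervals and a floor of 3 counts over the group. The fits were checked on simulated data.

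The members and lists were chosen with earlier results of these data known. Named copies are up to 6 in each direction with the largest change, among those with an adjusted p under 0.05 and a mean of at least 10 counts in the higher group. Copies of CpXY4, CpXY10 and CpXY13, the single-stage and single-library values, and copies whose change was not called, were chosen after their values were seen. The lowest chi-square per degree of freedom between libraries of a group was 1.46, in pollen, so none was counted as a repeat. Some late replicates differed widely. The value reached 208.8 in S5 pistillodes and 155.9 in S5 stamens, both between replicates 2 and 3, and ran from 59 to 79.2 in S4 pistillodes. Alternatives were 4 other scalings, other filters, DESeq2 1.42.0, fits on the groups compared or without pollen, a replicate block and each library left out. For the ratios of few counts, leaving out libraries was chosen after seeing the data. Tables and figures were made in Python 3.11.15 with matplotlib 3.10.9, SciPy 1.17.1 and pandas 2.3.3.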

Additional observations from a re-analysis of the deposited data

Results flagged for a closer look

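The change from early (S1 to S3) to late (S4 and S5) stages differed between stamens and pistillodes at 15 of the 32 copies (edgeR), 4 with a more positive and 11 with a more negative change in stamens, where 47.5% of all tested features were called. With table totals the split was 1 and 16, and with a mean of at least 10 counts 7 and 9. The difference of the log2 changes, stamen minus pistillode, was 2.41 for CpXY14_X, 0.89 for CpXY14_MSY, 0.70 for CpXY5_MSY and 0.41 for CpXY5_X. It was -3.39 for CpXY15_MSY, -2.88 for CpXY15_X, -1.12 for CpXY7_MSY, -1.08 for CpXY11_X, -1.03 for CpXY2_X and -0.98 for CpXY2_MSY. CpXY14_MSY lost its call without pistillode replicate 3 at S5 (0.85, adjusted p = 0.0516), CpXY5_MSY without that library or stamen replicate 1 at S4, and CpXY5_X without any 1 of these 2 libraries and stamen replicates 1 and 2 at S5 (0.32 to 0.39). CpXY14_MSY, CpXY5_MSY and CpXY5_X also lost their calls with table totals.

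The same change differed between pistillodes and pistils at 4 of the 32 copies, where 20.9% of all tested features were called. The difference, pistillode minus pistil, was 1.49 for CpXY7_MSY (SE 0.46, edgeR adjusted p = 0.0150), -0.83 for CpXY9_MSY and -0.46 for CpXY14_X, and the fourth was CpXY10_X, more positive in pistillodes, with 59 counts in late and 14 in early pistillode libraries. For the Y copies the pistil values are reads placed there in females. CpXY7_MSY lost its call without pistil replicate 3 at S2 (1.27, adjusted p = 0.0659) and in a fit on the groups compared alone (1.47, adjusted p = 0.0747). CpXY14_X lost it without any 1 of 13 libraries, which in pistils were replicate 1 of S1, those of S2 and S4, replicate 2 of S3 and replicate 3 of S5, and in pistillodes replicate 1 of S3, replicate 3 of S4 and replicates 2 and 3 of S5. With table totals 2 copies were more positive and 11 more negative in pistillodes. The count was 2 without pistil replicate 3 at S2. It was 7 without pistil replicate 1 at S5 or pistillode replicate 2 or 3 at S1, 8 without pistil replicate 1 at S3 or pistillode replicate 1 at S1, and 9 without pistil replicate 3 at S3, pistillode replicate 2 at S4 or pistillode replicate 1 at S5.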

How the results depend on the processing

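No called value of a single copy, pair sum or ratio turned its sign when 1 library was left out (2422 values of 145 results, of which 130 lost their call). Under the other alternatives 1030 of 1062 values kept theirs and 1 turned, the sum of CpXY16 in stamens against pistillodes, -0.0136 with table totals. Copies called without shared and partly shared pairs numbered 8 for stamen against pistillode, 4 for ovule against pistil, 17 for pollen against stamen, 3 for late pistils, 2 for late pistillodes and 8 for the late change of stamens against pistillodes. Late pistils gave 8 under each of the 4 other scalings and without pollen, and 10 with DESeq2. Late pistillodes gave 12 with table totals, 11 with DESeq2, 10 on the groups compared alone and 2 without pollen. The late change of pistillodes against pistils gave 13 with table totals, 7 with DESeq2 and 2 with a mean of at least 10 counts. The ovule pair sums gave 1 with the median of ratios. With 1 library left out, copies called ran from 23 to 26 in buds, 25 to 27 for pistillode against pistil, 16 to 18 for stamen against pistillode, 1 to 3 for ovules, 24 to 26 for pollen, 3 to 11 for late pistils, 2 to 4 for late pistillodes, 17 to 24 for late stamens, 12 to 17 for the late change of stamens against pistillodes and 2 to 9 for that of pistillodes against pistils. Pair sums ran from 4 to 7 in buds, 9 to 12, 8 to 11, 1 to 2 and 13 to 14 in the order of the 4 other comparisons above, and ratios were 5 for stamen against pistillode, 7 to 8 for pollen, 6 for late stamens and 3 to 5 for late pistillodes. The cause was not tested, other than that settings on fewer pairs test fewer features. In no comparison did every pair with the same replicate number correlate over 0.1 (median correlation of deviations 0.00458 for pistillode and pistil and -0.0273 for stamen and pistillode; in buds 2 of 3 pairs were over 0.1 and the lowest was -0.0352), and with the replicate number as a block 25, 26, 17, 2 and 26 copies were called in the first 5 comparisons, 5, 4 and 18 for late pistils, pistillodes and stamens, and 15 and 4 for the late changes; pair sums gave 7, 10, 10, 3 and 13, and ratios 5, 7, 6 and 4. Totals of sex-linked counts limit the precision of CpXY4, CpXY10 and CpXY13 outside late stamens, pollen and ovules. Limits of 2 and 40% for the classes made CpXY16 partly shared, and a minimum of 30 female counts made CpXY10 separate.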

Other observations

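Over the 13 pistillode libraries, the feature whose levels ran most like those of CpXY7_MSY among 114 features was CpXY41_MSY, which was chosen after its values were seen and belongs to a pair whose copies share reads. It had 12589, 18108 and 13996 CPM at S1, 13683 and 12688 CPM at S2, 72632 and 12215 CPM at S3, 17357, 112125 and 35302 CPM at S4 and 70929.9, 86434 and 67644 CPM at S5. Its high libraries at S3 and S4, replicate 1 and replicate 2, were those of CpXY7_MSY. CpXY41_X was high in the same libraries, with 35234 and 7073 CPM at S3 and 9389.6, 48929 and 21281 CPM at S4.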
